A study of Papio anubis with 28 samples.

Results

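The laminin and integrin gene families were followed in the bladder wall and in bladder grafts of olive baboons. The set was chosen by gene symbol. It took every gene of the deposited count table named LAMA, LAMB or LAMC plus a number, or ITGA or ITGB plus a subunit number or letter, and left out binding proteins. It held 36 of the 27533 genes in the table, 12 laminins and 24 integrins, and all 36 were among the 17177 genes with enough reads to be tested. ITGB3 and ITGAD were not analysed here.

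The 28 RNA sequencing libraries came from 14 wild-type animals, each with 1 library of grafted tissue and 1 of its own native bladder. In the Entero arm the graft was a segment of ileum (5 ileum grafts, 5 native bladders), the operation called enterocystoplasty. In the SIS arm (5 regenerated tissues, 5 native bladders) and the PRS arm (4 regenerated tissues, 4 native bladders) it was a scaffold that carried bone marrow mesenchymal stromal cells and CD34+ hematopoietic stem and progenitor cells. SIS is read here as small intestinal submucosa, a decellularized sheet of intestinal matrix. For the meaning of PRS, the ages, the time since surgery and the sampled region of each graft no source was at hand. Neither ungrafted ileum nor scaffolds without cells were analysed here, so a trait of bowel and a change after grafting cannot be told apart.

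Laminins are secreted trimers of an alpha, a beta and a gamma chain that build the basement membrane, the sheet on which epithelia rest and which wraps muscle, nerve and vessels. Integrins are receptors of an alpha and a beta chain that tie cells to this matrix or to other cells. In the bladder a laminin that holds LAMA3 and LAMB3 and the receptor of ITGA6 and ITGB4 anchor the urothelium, the lining of the organ. LAMA2, LAMA4 and ITGA7 belong to the wrapping of muscle and vessels, and ITGAL, ITGAM, ITGAX and ITGB2 are carried by leukocytes. These roles are known mainly from human and mouse. By such roles the members were put in 4 classes, epithelial (10), stromal (14), leukocyte and platelet (8) and broad or rare (4).

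Levels are given in CPM, the read count of a gene relative to the library total, after correction for composition. Total counts lay between 20975648 and 35669026 per library. The ileum grafts carried intestinal markers, with a sum over 8 genes of 1708 to 8708 CPM, against 42.5 to 202 CPM in Entero native bladder. The urothelial list without KRT20, a keratin that intestine shares, summed to 10.6 to 37.2 CPM in the ileum grafts and 441 to 5951 CPM in Entero native bladder, and to 334 to 6009 CPM in SIS and 371 to 2747 CPM in PRS regenerated tissue. Mitochondrial genes took 13.97 to 33.9% of the reads in ileum grafts and 4.66 to 11.6% elsewhere. The sum over 7 smooth muscle markers varied within every group, between 2697 and 90959 CPM over all libraries.

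Per kilobase of gene length, the scale on which different genes can be set side by side, ITGB1 stood highest in all 6 groups. This is the beta chain that most laminin and collagen receptors share, and its group means lay between 170.4 CPM per kilobase in ileum grafts and 336 CPM per kilobase in SIS native bladder. Averaged over the groups, LAMB2 (64.3 CPM per kilobase), ITGA5 (64.3), ITGB4 (60.7), ITGB5 (53.7), LAMB3 (52.4), LAMC1 (50.5) and LAMA4 (48.6) followed. LAMB2 and LAMC1 are the beta and gamma chains of many stromal laminins, and ITGA5 is the alpha chain of the main fibronectin receptor. The lowest levels were those of LAMA1 (0.424 CPM per kilobase), ITGA2B, the platelet subunit (0.166), and LAMB4 (0.0457).

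**Figure D1:**
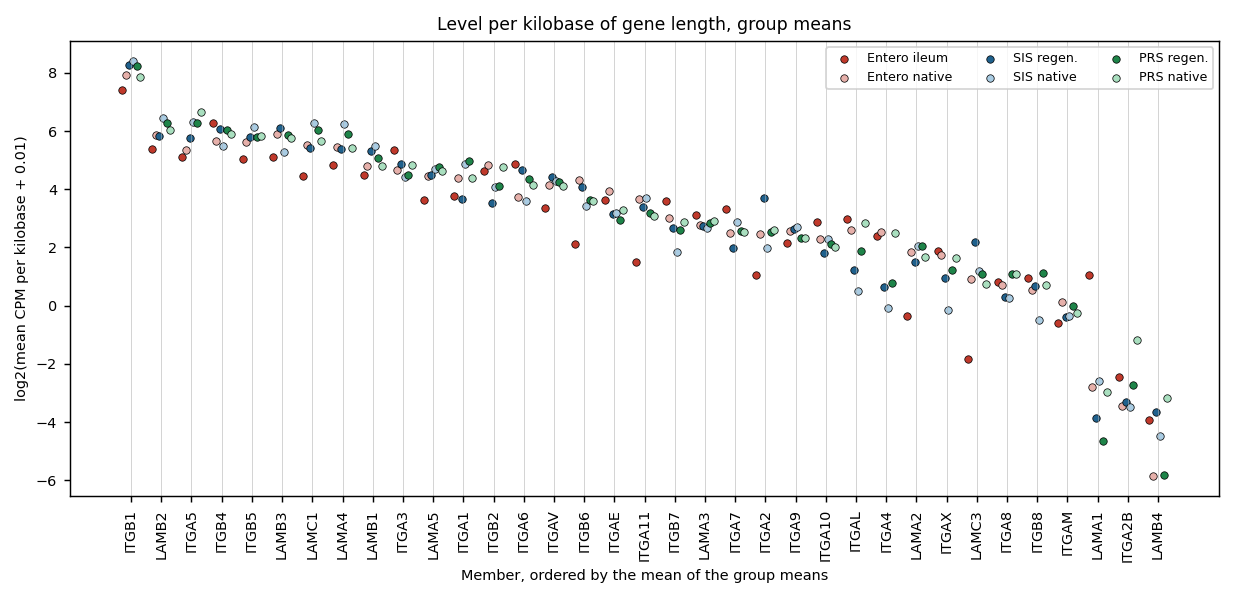
Mean CPM per kilobase of gene length of 35 of the 36 genes in the 6 groups, as log2 of the level plus 0.01, ordered by the mean of the group means. ITGB1 leads at 264 CPM per kilobase and LAMB4 closes the order at 0.0457.

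Ileum grafts were compared with native bladder of the same arm to ask how the adhesion genes of a bowel segment differ from those of the bladder wall. LAMA1, an alpha chain known mainly from embryonic basement membranes, was higher in the ileum grafts. Lower were ITGB6, an epithelial chain that activates TGF-beta together with ITGAV, ITGA11, a collagen receptor of fibroblasts, LAMA2, the alpha chain of muscle basement membrane, and LAMC3, a gamma chain of narrow expression. In edgeR's quasi-likelihood test, with p-values adjusted over all genes tested and a threshold of 0.05, 5 of 36 members passed. Over all genes 15.0% passed, 7.72% higher and 7.33% lower, so the members' share was near the background. At an unadjusted p under 0.05 there were 11 members, beside 28.5% of all genes, and 3 members had ranges that did not overlap, beside 11.4%. By class, 1 of 10 epithelial and 3 of 14 stromal members were lower, 0 of 8 leukocyte members passed and 1 of 4 broad members was higher. The median log2 fold change was 0.38 for the epithelial, -0.55 for the stromal and 0.00 for the leukocyte class, beside -0.03 over all genes tested. In bulk tissue, fewer cells of a type and less RNA per cell cannot be told apart. The p-values measure the spread between the animals' samples.

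LAMA1 (ENSPANG00000019970) had 24.6, 11.1, 10.9, 14.7 and 6.19 CPM in the ileum grafts, against 1.12, 2.18, 0.357, 0.615 and 0.193 CPM in Entero native bladders. Every graft lay above every native bladder of the arm, and the 18 SIS and PRS libraries held 0 to 2.91 CPM. The log2 fold change was 3.91 (SE 1.27, 95% interval 1.29 to 6.52, adjusted p = 0.0373 in edgeR), with the graft higher in 5 of 5 animals. The call was lost in the fit blocked by animal (4.27, adjusted p = 0.0598) and without ileum graft 1, 2 or 4 or Entero native bladder 1, 3, 4 or 5 (adjusted p between 0.0508 and 0.0918).

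ITGA11 (ENSPANG00000016582) had 10.5, 12.9, 9.05, 10.6 and 8.33 CPM in the ileum grafts, against 25.6, 24.6, 23.5, 117 and 37.6 CPM in native bladders. The groups did not overlap, and the graft was lower in 5 of 5 animals. The log2 fold change was -2.15 (SE 0.46, 95% interval -3.09 to -1.21, adjusted p = 0.00183 in edgeR), a call that held in all 15 alternatives tried. The high library, Entero native bladder 4, also had the highest smooth muscle sum of its group, 79187 CPM where the other 4 had 6868 to 17662 CPM, and without it the log2 fold change was -1.43. Fibroblast markers were lower in 2 of 7 genes, with sums of 1081 to 6549 CPM in ileum grafts and 3315 to 18815 CPM in native bladders, and their part in the ITGA11 value was not tested.

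LAMA2 (ENSPANG00000005014) had 9.86, 0.551, 10.7, 2.28 and 2.096 CPM in the ileum grafts, against 27.9, 16.9, 11.6, 31.9 and 28.7 CPM in native bladders. The lowest native bladder stood just above the highest graft. The log2 fold change was -2.20 (SE 0.74, 95% interval -3.71 to -0.68, adjusted p = 0.0433 in edgeR), with the graft lower in 5 of 5 animals. The call was lost with RLE scaling (-2.10, adjusted p = 0.0539), in the fit of only the 2 groups (-2.23, adjusted p = 0.0592) and without ileum graft 2, 4 or 5 or Entero native bladder 1, 4 or 5 (adjusted p between 0.0733 and 0.11). RLE is another correction for library composition. None of the 7 smooth muscle markers passed here, and their sums overlapped, at 4160.0 to 90959 CPM in ileum grafts and 6868 to 79187 CPM in native bladders. Of the 7 fibroblast markers 2 were lower, with a median log2 fold change of -1.20 over the list. The part of either tissue in the LAMA2 value was not tested.

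LAMC3 (ENSPANG00000025978) had 0, 3.01, 0, 0.7604 and 1.497 CPM in the ileum grafts, against 13.2, 12.2, 3.81, 1.92 and 5.53 CPM in native bladders. Ileum graft 2 lay above native bladder 4, so the groups overlapped. The log2 fold change was -2.80 (SE 0.96, 95% interval -4.77 to -0.82, adjusted p = 0.0494 in edgeR), at the edge of the threshold. Within animals the graft was lower in 5 of 5. The call was lost with RLE scaling (-2.76, adjusted p = 0.0524), with no filter on low counts (-2.81, adjusted p = 0.0571), in the fit blocked by animal (-3.37, adjusted p = 0.0654), in the fit of only the 2 groups (-2.84, adjusted p = 0.156) and without ileum graft 1, 3, 4 or 5 or Entero native bladder 1, 2, 3 or 5 (adjusted p between 0.0546 and 0.107).

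ITGB6 (ENSPANG00000018923) had 17.8, 22.8, 7.01, 3.23 and 9.58 CPM in the ileum grafts, against 54.8, 71.5, 107, 3.27 and 47.5 CPM in native bladders. Native bladder 4, the library with the least urothelial RNA of its group (a sum of 445 CPM), stood among the grafts, and the other 4 native bladders stood above all grafts. The log2 fold change was -2.23 (SE 0.73, 95% interval -3.74 to -0.72, adjusted p = 0.0393 in edgeR). The graft was lower in 5 of 5 animals, by log2 differences of CPM plus 1 between -3.75 and -0.01. The call was lost in the fit blocked by animal (-1.90, adjusted p = 0.0734), in the fit of only the 2 groups (-2.26, adjusted p = 0.0701) and without ileum graft 3, 4 or 5 or Entero native bladder 1, 2, 3 or 5 (adjusted p between 0.0534 and 0.107). Of the 9 urothelial markers 8 were lower in the ileum grafts and KRT20 was higher, and their part in the ITGB6 value was not tested.

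The genes of epithelial anchoring described next did not pass edgeR's test on all libraries in the ileum grafts. ITGB4, the beta chain of the hemidesmosome receptor, was at 409.6 ± 165 CPM in ileum grafts and 269.6 ± 141 CPM in native bladders (SD, n = 5 each), with a log2 fold change of 0.60 (-0.36 to 1.57). Within animals ITGB4 was higher in the graft in 5 of 5. Its partner ITGA6 had 1.12 (0.12 to 2.12, adjusted p = 0.127 in edgeR), and ITGA3, which binds the same laminins, had 0.68 (0.11 to 1.25, adjusted p = 0.102). The anchoring chains LAMA3 and LAMB3 had log2 fold changes of 0.33 for LAMA3 and -0.80 for LAMB3. In DESeq2, which called 21.0% of all genes here, ITGA3 passed as higher (0.75, adjusted p = 0.0466). So did ITGA10 of the stromal class (0.64, adjusted p = 0.0406 in DESeq2), with the graft higher in 5 of 5 animals.

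LAMA5 (ENSPANG00000025595), the alpha chain of most mature epithelial and vessel basement membranes, had 110.0, 87.03, 305, 98.7 and 84.2 CPM in the ileum grafts, against 251, 195, 265, 286 and 208 CPM in native bladders. All grafts but ileum graft 3 lay below every native bladder. The log2 fold change of -0.82 missed the threshold (adjusted p = 0.0523 in edgeR), but LAMA5 passed in the fit blocked by animal (-1.01, adjusted p = 0.0216) and without ileum graft 3 (-1.34, adjusted p = 9.27e-05). Ileum graft 3 had the highest smooth muscle sum of its group, 90959 CPM. With the block 3 members passed in place of 5, namely ITGA11, LAMA2 and LAMA5.

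Other libraries of the arm also decided calls. Ileum graft 1 had 24.3 CPM of ITGA2, a collagen receptor of epithelia, where the other 4 had 0.730 to 4.76 CPM, and it had the highest mitochondrial share, 33.9%. Without it ITGA2 (-2.68, adjusted p = 0.00276) and ITGAV (-1.27, adjusted p = 0.016 in edgeR) passed as lower. ITGA6 passed as higher without ileum graft 3 (1.38, adjusted p = 0.0425), and ITGA3 without ileum graft 4 (0.86, adjusted p = 0.024).

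**Figure D2:**
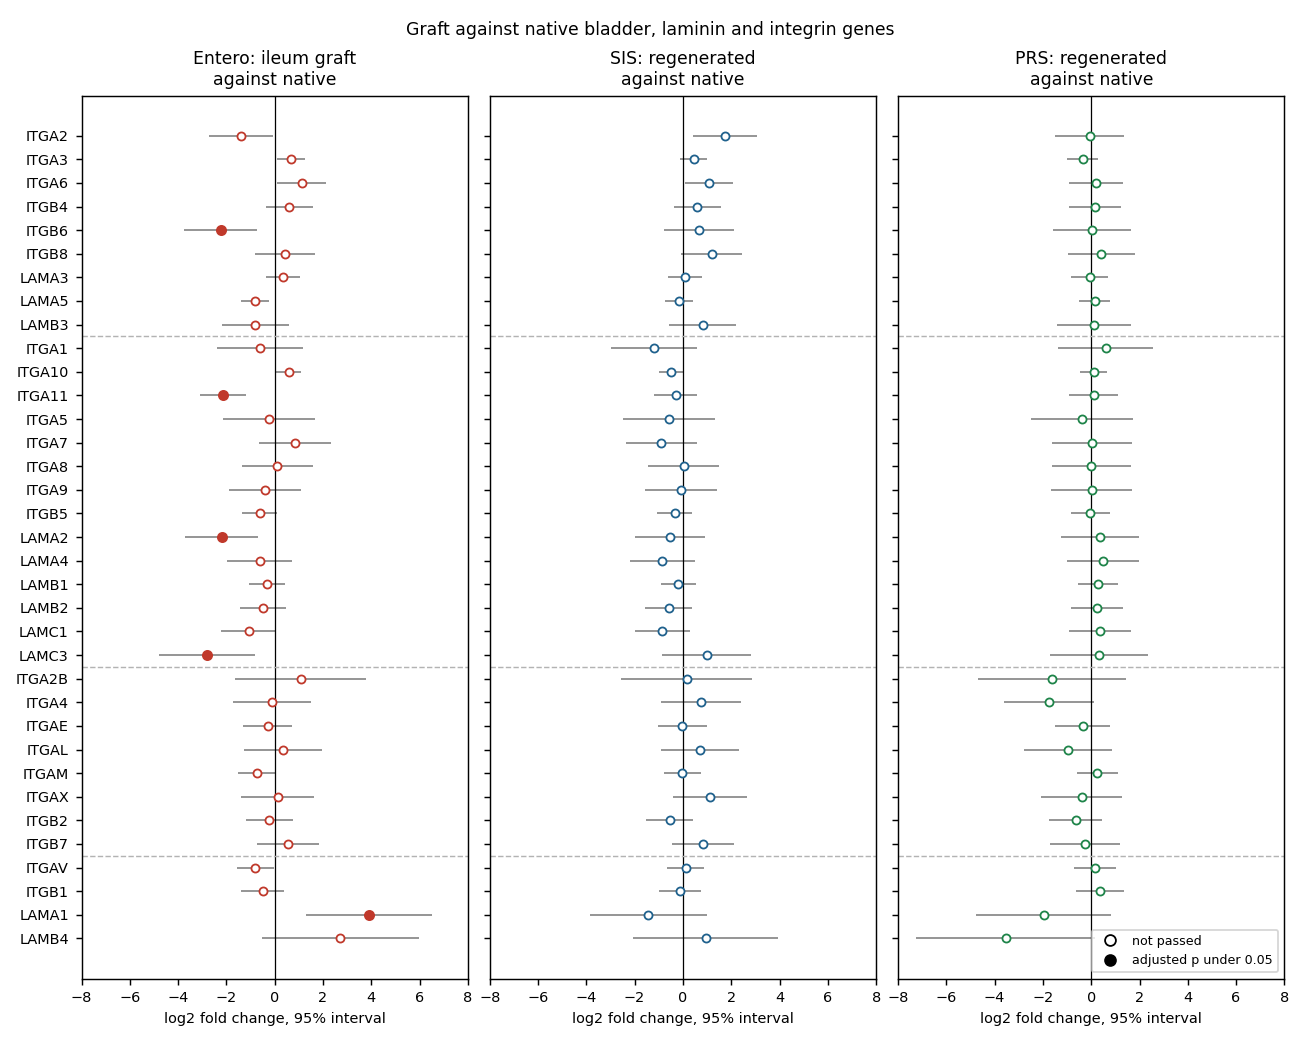
Log2 fold change of graft over native bladder for 35 of the 36 genes in each arm, with 95% intervals as lines; filled points passed at an adjusted p under 0.05, and dashed lines part the 4 classes. The 5 filled points are all in the Entero panel, at 3.91 for LAMA1 and between -2.80 and -2.15 for the 4 lower members.

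Regenerated tissue was compared with native bladder to ask how close the scaffold grafts came to the adhesion genes of the wall. In the SIS arm 0 of 36 members passed in edgeR, as did 0.00% of all genes, and in the PRS arm 0 of 36 members and 0.00% of all genes. DESeq2 called 0 members in each, beside 0.409% of all genes in the SIS and 0.152% in the PRS arm. At an unadjusted p under 0.05 there were 4 members in the SIS arm, beside 4.86% of all genes, and 0 in the PRS arm, beside 3.62%. A missed threshold does not show that levels were equal. Members whose 95% interval stayed within 4-fold either way numbered 18 of 36 in the SIS arm and 27 in the PRS arm, and within 2-fold 5 and 5.

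In the SIS arm 9 of 10 epithelial members had positive log2 fold changes, with a median of 0.73 beside 0.03 over all genes tested. Of those 17177 genes 9019 were positive. The ranges of 2 members did not overlap in this arm, beside 1.15% of all genes. Among them was ITGB8, another activator of TGF-beta with ITGAV, at 2.61 to 6.22 CPM in regenerated tissue, against 1.43 to 2.32 CPM in SIS native bladder (1.18, -0.07 to 2.44). ITGA2 (ENSPANG00000004376) had 22.3, 67.7, 32.2, 45.99 and 61.1 CPM in SIS regenerated tissue, against 24.1, 16.9, 16.9, 5.61 and 5.97 CPM in SIS native bladder. Only the lowest regenerated and the highest native library crossed (1.72, 0.40 to 3.05, adjusted p = 0.862 in edgeR). LAMA3 (0.09, -0.61 to 0.78) and LAMA5 (-0.18, -0.76 to 0.40), the laminin alpha chains of the class, had values nearer 0. Mesothelial markers summed to 2.14 to 293 CPM in SIS regenerated tissue and 2.597 to 10.04 CPM in SIS native bladder without passing. The urothelial sum was 337 to 6014 CPM in SIS regenerated tissue and 219.9 to 5443 CPM in SIS native bladder, and its 2 lowest native libraries, SIS native bladders 4 and 5 (219.9 and 1143 CPM), were also the lowest of the group in ITGA2, ITGB4, ITGB6 and LAMB3. In regenerated tissue the lowest urothelial sum, 337 CPM, was that of SIS regenerated tissue 2. This library was the lowest of its group in ITGB4, ITGB6 and LAMB3, but the highest in ITGA2 (67.7 CPM). The part of mesothelial and urothelial RNA in these values was not tested.

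Of the 14 stromal members 12 had negative values in the SIS arm, with a median of -0.52, beside 8101 negative of all 17177 genes tested. LAMC1, the gamma chain of most laminins, had 336, 435, 163, 163 and 164 CPM in SIS regenerated tissue, against 212, 158, 393, 742 and 776 CPM in SIS native bladder (log2 fold change -0.86, SE 0.56). LAMA4, the alpha chain of vessels and smooth muscle, was at 188 ± 133 CPM in SIS regenerated tissue, against 341 ± 232 CPM in SIS native bladder (SD, n = 5 each). Both stood highest in SIS native bladders 4 and 5, which also had the highest smooth muscle sums of the group. Those sums were 8035 to 46724 CPM in SIS regenerated tissue and 11054 to 89361 CPM in SIS native bladder, and their part in the stromal values was not tested. The 8 leukocyte members had a median of 0.43.

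In the PRS arm the median log2 fold change was 0.14 for the epithelial, 0.18 for the stromal and -0.53 for the leukocyte class, beside 0.02 over all genes tested. ITGA4, an alpha chain that brings lymphocytes to gut and inflamed vessels, was at 5.13, 2.995, 2.53 and 10.3 CPM in PRS regenerated tissue, against 4.66, 3.59, 15.8 and 46.6 CPM in PRS native bladder (-1.75, -3.63 to 0.13). The 9 leukocyte markers had a median of -0.97 in this arm, none passed, and their sum without LYZ, a lysozyme that epithelia also make, was 47.9 to 232 CPM in PRS regenerated tissue and 77.1 to 888 CPM in PRS native bladder. It was highest in PRS native bladder 4, the library highest in ITGA4, and its part was not tested. The ranges overlapped for all 36 members in this arm, where 1.20% of all genes had ranges apart. PRS regenerated tissue 2 stood apart from the other 3, with 1543 CPM of ITGA5 where they had 78.5 to 329 CPM, 375 CPM of ITGA1, a collagen receptor of smooth muscle, where they had 9.03 to 43.97 CPM, and 969.5 CPM of LAMC1 where they had 148 to 278 CPM. Its smooth muscle sum was 84646 CPM where theirs were 3589 to 22421 CPM. Without it the count of members called was still 0.

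Averaged over both scaffold arms, 0 of 36 members and 0.00% of all genes passed in edgeR, and 0 members in DESeq2, beside 0.379% of all genes. There was 1 member at an unadjusted p under 0.05, beside 4.98% of all genes. The interval lay within 4-fold for 32 members and within 2-fold for 12. Among those 12 were ITGA3 (0.04, -0.38 to 0.47), LAMA3 (0.01, -0.51 to 0.53), LAMA5 (-0.02, -0.45 to 0.42) and ITGA10, a collagen receptor best known from cartilage (-0.20, -0.57 to 0.18). The ITGA3 mean joins opposite directions. Its graft level was higher in 5 of 5 SIS animals and lower in 4 of 4 PRS animals, with median log2 differences of CPM plus 1 of 0.31 and -0.17.

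**Figure D3:**
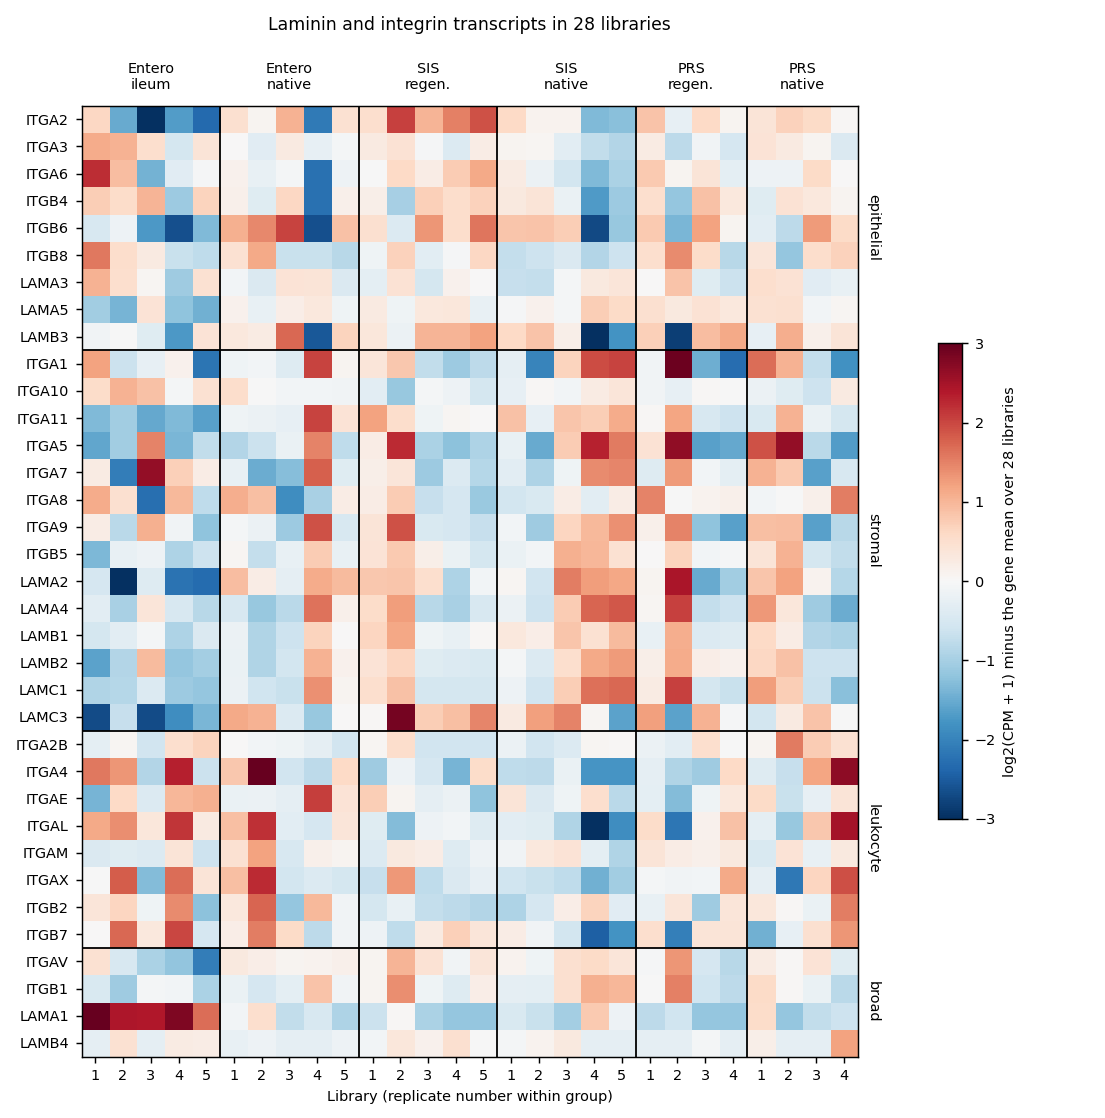
Log2(CPM + 1) of 35 of the 36 genes in the 28 libraries, minus the mean of each gene over all libraries, as colors; lines part the groups and the 4 classes. The 5 ileum grafts are high in LAMA1 (6.19 to 24.6 CPM), and several stromal genes are high together in single libraries such as Entero native bladder 4 and PRS regenerated tissue 2 (606 and 969.5 CPM of LAMC1).

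The change in each scaffold arm was set against the change in the Entero arm to ask whether scaffold and bowel grafts depart from their own bladders differently. Between the SIS and Entero arms 1 of 36 members passed, ITGA2, beside 6.56% of all genes (3.59% higher and 2.97% lower), and 6 had an unadjusted p under 0.05, beside 19.5%. ITGA2 had 24.3, 4.76, 0.730, 4.18 and 2.295 CPM in the ileum grafts, against 22.0, 16.5, 33.3, 2.805 and 21.7 CPM in Entero native bladders. Its log2 fold change was 1.72 in the SIS arm and -1.41 in the Entero arm, neither past the threshold on its own. The difference was 3.13 (SE 0.91, 95% interval 1.26 to 5.00, adjusted p = 0.0358 in edgeR). The call was lost in the fit blocked by animal (3.68, adjusted p = 0.0749), in the fit of only the 4 groups (3.13, adjusted p = 0.0723) and without ileum graft 2, 4 or 5, or Entero native bladder 1, 3 or 5, or SIS regenerated tissue 2 or 5, or SIS native bladder 3, 4 or 5 (adjusted p between 0.0512 and 0.0778). In DESeq2 6 members passed, the others being ITGA10, LAMA1, ITGA11, LAMC3 and ITGB6, whose adjusted p-values in edgeR lay between 0.0609 and 0.0894. DESeq2 called 10.4% of all genes there.

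Between the PRS and Entero arms 0 of 36 members passed in edgeR, beside 3.49% of all genes (1.58% higher and 1.91% lower). At an unadjusted p under 0.05 there were 8 members, beside 16.0% of all genes, and DESeq2 called 2, ITGA11 (2.17, adjusted p = 0.023) and LAMA1 (-5.96, adjusted p = 0.01), where it called 1176 of 16798 genes. In edgeR ITGA11 passed without Entero native bladder 2 or 3, PRS regenerated tissue 4 or PRS native bladder 2 (2.41 to 2.79). Without ileum graft 3, LAMA5 passed in both differences (1.17 for SIS and 1.49 for PRS), which share the Entero libraries. Between the PRS and SIS arms 0 members and 0.00% of all genes passed in edgeR, 0 members in DESeq2, beside 0.117% of all genes, and 0 members had an unadjusted p under 0.05, beside 3.98% of all genes. The interval of the PRS minus SIS difference was -3.74 to 0.16 for ITGA2 and -4.98 to 0.01 for ITGA4.

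Graft was also set against graft. In SIS regenerated tissue against ileum grafts 7 of 36 members passed, 5 higher and 2 lower, beside 21.1% of all genes (10.9% higher and 10.2% lower). At an unadjusted p under 0.05 there were 14 members, beside 34.3% of all genes, and 4 had ranges apart, beside 12.6%. In PRS regenerated tissue against ileum grafts 5 passed, 4 higher and 1 lower, beside 14.0% (7.21% higher and 6.75% lower). At an unadjusted p under 0.05 there were 12 members, beside 27.9% of all genes, and 3 had ranges apart, beside 11.2%. Both shares were near the background, and both comparisons share the 5 ileum libraries.

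LAMA1 had 0.441, 1.31, 0.163, 0 and 0 CPM in SIS and 0.312, 0.479, 0 and 0 CPM in PRS regenerated tissue, against 6.19 to 24.6 CPM in ileum grafts. It was lower in both, by log2 fold changes of -5.15 (SE 1.36, adjusted p = 0.00817 in edgeR) and -6.07 (SE 1.57, adjusted p = 0.0102), and both calls held in every alternative tried. LAMA5 had 276, 208, 284, 291 and 197 CPM in SIS and 323, 282, 312 and 287 CPM in PRS regenerated tissue, against 84.2 to 305 CPM in ileum grafts. It was higher in both (0.88, adjusted p = 0.0288 and 1.14, adjusted p = 0.0113 in edgeR). The SIS call was lost in the fit of only the 2 groups (0.91, adjusted p = 0.13) and without ileum graft 1, 2, 4 or 5 or SIS regenerated tissue 1, 3 or 4 (adjusted p between 0.0544 and 0.084), and the PRS call in the fit of only the 2 groups (1.10, adjusted p = 0.179).

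ITGA11 had 65.4, 41.0, 25.6, 29.3 and 28.1 CPM in SIS and 28.5, 64.4, 19.7 and 17.9 CPM in PRS regenerated tissue, against 8.33 to 12.9 CPM in ileum grafts. No library of either scaffold group reached down to the ileum range. The log2 fold changes were 1.88 (adjusted p = 0.00425) and 1.67 (adjusted p = 0.0179 in edgeR), and the PRS value was 1.12 without PRS regenerated tissue 2 (adjusted p = 0.136). LAMC3 had 5.56, 45.7, 9.67, 11.04 and 16.7 CPM in SIS and 14.1, 1.12, 12.2 and 5.32 CPM in PRS regenerated tissue, against 0 to 3.01 CPM in ileum grafts. It was higher in SIS (4.07, adjusted p = 0.00543) and in PRS (2.96, adjusted p = 0.0466 in edgeR). The PRS call was lost with no filter on low counts (2.96, adjusted p = 0.0555), in the fit of only the 2 groups (2.96, adjusted p = 0.244) and without ileum graft 1, 3, 4 or 5 or PRS regenerated tissue 1, 3 or 4 (adjusted p between 0.0518 and 0.12).

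ITGA2 was higher in SIS regenerated tissue than in ileum grafts (2.66, SE 0.67, adjusted p = 0.00584 in edgeR), and in PRS, with 28.7, 12.8, 24.1 and 16.4 CPM, it did not pass (interval 0.12 to 2.88, adjusted p = 0.14). ITGA10 (ENSPANG00000004930) had 15.2, 8.09, 18.2, 16.9 and 12.8 CPM in SIS regenerated tissue, against 28.6, 40.2, 35.6, 18.1 and 26.5 CPM in ileum grafts. SIS regenerated tissue 3 just topped ileum graft 4, the point where the groups met (-1.06, adjusted p = 0.00298 in edgeR). In PRS regenerated tissue ITGA10 and ITGA3 passed as lower than in ileum grafts only in alternatives. These were DESeq2 (-0.78, adjusted p = 0.0168 and -0.91, adjusted p = 0.021), RLE scaling in edgeR (adjusted p = 0.0463 and 0.0439) and fits without single libraries. LAMC1 passed there as higher in DESeq2 (1.53, adjusted p = 0.0431). DESeq2 called 19.8% of all genes there, and RLE scaling 2357 of 17177. ITGAV (ENSPANG00000002085), the alpha chain of the vitronectin receptors, had 52.9, 103, 67.2, 46.3 and 64.3 CPM in SIS regenerated tissue, against 68.3, 35.3, 25.4, 21.3 and 11.03 CPM in ileum grafts. It passed at the edge (1.05, adjusted p = 0.0496 in edgeR), and not with RLE scaling (0.97, adjusted p = 0.0721), with no filter on low counts (1.05, adjusted p = 0.0595), in DESeq2 (0.97, adjusted p = 0.0507), in the fit of only the 2 groups (1.05, adjusted p = 0.138) and without ileum graft 2, 3, 4 or 5 or SIS regenerated tissue 1, 2, 3 or 5 (adjusted p between 0.055 and 0.132). LAMA2 had 15.1, 82.1, 4.34 and 6.43 CPM in PRS regenerated tissue, against 0.551 to 10.7 CPM in ileum grafts. It passed as higher (2.40, adjusted p = 0.036 in edgeR), but was at 0.78 without PRS regenerated tissue 2, and the call was lost in the fit of only the 2 groups (2.35, adjusted p = 0.219) and without ileum graft 2, 4 or 5 or PRS regenerated tissue 2 (adjusted p between 0.0715 and 0.548).

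PRS against SIS regenerated tissue gave 0 members in edgeR, beside 0.00% of all genes, and 0 in DESeq2, beside 0.0876%, with 0 at an unadjusted p under 0.05 beside 4.44% of all genes. The interval lay within 4-fold for 25 members and within 2-fold for 7.

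**Figure D4:**
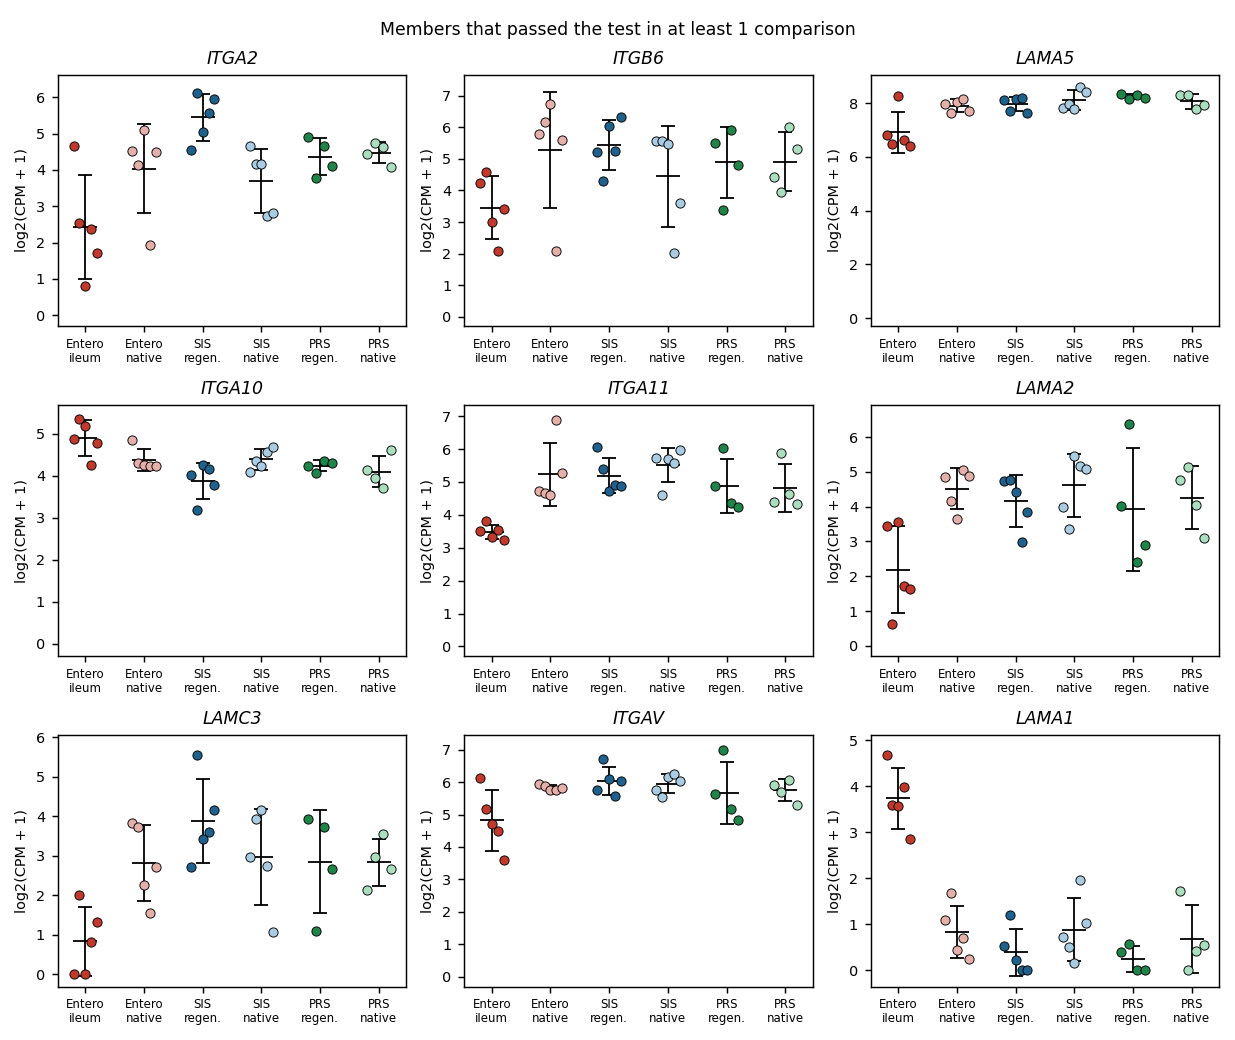
Log2(CPM + 1) of the 9 members that passed in at least 1 comparison, 1 point per library, with the group mean and SD as bars, graft left of native bladder in each arm. LAMA1 is high in the 5 ileum grafts (6.19 to 24.6 CPM), ITGA11 is low there (8.33 to 12.9 CPM), and PRS regenerated tissue 2 stands apart for LAMA2 (82.1 CPM).

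No leukocyte integrin passed in edgeR's model of all 6 groups in any comparison, and their spread within groups was wide. ITGAL, the alpha chain that binds lymphocytes to ICAM proteins, had 25.4, 30.5, 14.4, 52.8 and 13.5 CPM in ileum grafts, against 21.7, 53.9, 8.76, 7.57 and 14.5 CPM in Entero native bladders. ITGB7, which pairs with ITGAE on lymphocytes within epithelia, had 16.4, 56.0, 20.3, 68.1 and 11.2 CPM in ileum grafts, against 18.7, 49.3, 24.7, 8.95 and 14.9 CPM in Entero native bladders. For both the groups overlapped. ITGB2, the beta chain common to ITGAL, ITGAM and ITGAX, had log2 fold changes of -0.22 (-1.19 to 0.75) in the Entero, -0.55 (-1.53 to 0.42) in the SIS and -0.65 (-1.74 to 0.44) in the PRS arm. ITGAL in SIS regenerated tissue lay below all ileum grafts, at 3.93 to 10.5 against 13.5 to 52.8 CPM, without passing (-1.74, adjusted p = 0.127 in edgeR), though it passed in the fit of only the 2 groups (adjusted p = 0.0211). Of the 9 leukocyte markers 3 were lower and 1 higher in this comparison (median -1.45). Their sum without LYZ was 65.4 to 112 CPM in SIS regenerated tissue and 128 to 836 CPM in ileum grafts, ranges apart as for ITGAL, and with LYZ 203 to 1194 and 148 to 1151 CPM. The part of leukocyte content in the ITGAL value was not tested.

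The members not yet described passed in no comparison in edgeR's model of all 6 groups with every library in. The range of their 6 group means was 44.6 to 111 CPM for ITGA1, 226 to 659 CPM for ITGA5, 27.4 to 69.7 CPM for ITGA7, the laminin receptor of muscle, 4.42 to 7.897 CPM for ITGA8, the nephronectin receptor, and 14.2 to 20.95 CPM for ITGA9, which binds tenascin. It was 79.8 to 175 CPM for ITGB5, which pairs with ITGAV, 123 to 248 CPM for LAMB1, 250.3 to 519 CPM for LAMB2 and 409 to 805 CPM for ITGB1. Without ileum graft 3, LAMB2 passed as higher in PRS regenerated tissue than in ileum grafts (1.63, adjusted p = 0.0174 in edgeR). Of the leukocyte class, ITGAE lay at 27.05 to 53.2 CPM, ITGAM at 4.15 to 6.98 CPM, ITGAX at 3.40 to 14.1 CPM and ITGA2B at 0.297 to 1.61 CPM. LAMB4 had 5.00 to 59.0 reads per group in all.

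Native bladders of different arms were compared to ask how far the arms differed outside the grafted tissue. All came from grafted animals, so an effect of the graft on the native bladder cannot be told apart from other differences between arms. No member passed in edgeR or DESeq2 in any of the 3 comparisons. Over all genes edgeR called 0.00% in each, and DESeq2 0.374% for Entero against SIS, 0.163% for Entero against PRS and 0.665% for PRS against SIS native bladder. At an unadjusted p under 0.05 there were 3 members for Entero against SIS, 1 for Entero against PRS and 4 for PRS against SIS native bladder, beside 4.14%, 2.15% and 7.02% of all genes. All 8 leukocyte members were positive for Entero against SIS (median 0.97) and for PRS against SIS (median 1.42), which share the SIS native libraries. Over all 17177 genes tested 8588 and 8443 were positive, with medians of 0 and -0.004. The 8 members were read in the same libraries, so they are not 8 separate results. ITGA4 had 12.03, 59.1, 3.96, 3.34 and 10.2 CPM in Entero and 4.66, 3.59, 15.8 and 46.6 CPM in PRS native bladders, against 3.39, 3.29, 5.47, 1.19 and 1.19 CPM in SIS native bladders (2.61, adjusted p = 0.948 and 2.60, adjusted p = 0.536 in edgeR). The 9 leukocyte markers moved with these members, with medians of 1.61 for Entero and 1.76 for PRS against SIS native bladder, and none passed. Their sum without LYZ was 97.4 to 896 CPM in Entero, 77.1 to 888 CPM in PRS and 33.6 to 106 CPM in SIS native bladder, and with LYZ 345 to 1619, 368 to 1644 and 96.2 to 1337 CPM. Their part was not tested.

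Over the 14 native bladders members varied by very different factors. LAMA5 (195 to 385 CPM), ITGAV (38.5 to 74.9 CPM), LAMA3 (40.4 to 96.2 CPM), ITGA10 (12.03 to 27.7 CPM) and ITGA3 (45.1 to 112 CPM) had a highest library at most 2.496 times the lowest. ITGB6 differed by 34.8 times (3.07 to 107 CPM), LAMB3 by 31.5 times (15.02 to 474 CPM), ITGA4 by 49.8 times (1.19 to 59.1 CPM) and ITGA8 by 25.9 times (0.634 to 16.4 CPM). ITGAX differed by 45.0 times (0.815 to 36.7 CPM). Wider still was ITGAL (0.0409 to 67.7 CPM), whose lowest library, SIS native bladder 4, held 1 read.

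These levels were set beside the summed level of 3 marker lists on log2 scales, in 108 relations whose two-sided permutation p-values (100000 permutations, smallest possible p = 1e-05) were adjusted together. Each bracket gives the p for Pearson's r and then that for Spearman's rho. Members and markers share libraries and totals, and the lists are shares of 1 whole, so they move against each other. The arms hold 5, 5 and 4 native bladders, too few for a value within each. Of the 14 stromal members 11 had a positive relation with the smooth muscle sum at an adjusted p under 0.05. For counts by adjusted p, here and below, no share over all genes was computed. Over all members 11 had r over 0.8, beside 8.10% of all genes. LAMC1 had r = 0.96 (rho = 0.91, permutation p = 1e-05 and 3e-05, adjusted p = 0.00018 and 0.00054, r 0.95 without the 2 farthest libraries and 0.96 with arm means removed). LAMA4 had r = 0.94 (rho = 0.93, permutation p = 1e-05 and 2e-05, adjusted p = 0.00018 and 0.00054, r 0.93 without the 2 farthest libraries and 0.94 with arm means removed), and ITGA7 had r = 0.86 (rho = 0.86, permutation p = 0.00017 and 0.00013, adjusted p = 0.000874 and 0.001, r 0.94 without the 2 farthest libraries and 0.85 with arm means removed). The farthest libraries for this list were PRS native bladder 4 and SIS native bladder 4. Outside the pattern were 3 stromal members. ITGA10 had r = -0.03 (rho = -0.16, permutation p = 0.907 and 0.574, adjusted p = 0.925 and 0.674, r 0.03 without the 2 farthest libraries and -0.11 with arm means removed). Negative values that did not pass were those of ITGA8, with r = -0.41 (rho = -0.47, permutation p = 0.149 and 0.0915, adjusted p = 0.203 and 0.162, r -0.16 without the 2 farthest libraries and -0.40 with arm means removed), and LAMC3, with r = -0.48 (rho = -0.42, permutation p = 0.0848 and 0.135, adjusted p = 0.127 and 0.215, r -0.64 without the 2 farthest libraries and -0.52 with arm means removed).

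The epithelial class was split. With the urothelial sum 3 members had r over 0.8, beside 4.57% of all genes. LAMB3 had r = 0.91 (rho = 0.82, permutation p = 5e-05 and 0.00053, adjusted p = 0.000337 and 0.0026, r 0.71 without the 2 farthest libraries and 0.92 with arm means removed), and ITGB4 had r = 0.88 (rho = 0.90, permutation p = 0.0002 and 6e-05, adjusted p = 0.000982 and 0.00063, r 0.73 without the 2 farthest libraries and 0.90 with arm means removed). The third was ITGA2, with r = 0.85 (rho = 0.88, permutation p = 0.00051 and 7e-05, adjusted p = 0.00197 and 0.00063, r 0.68 without the 2 farthest libraries and 0.87 with arm means removed). The farthest libraries here were SIS native bladder 4 and Entero native bladder 4, those with the least urothelial RNA. ITGA6 had r = 0.75 (rho = 0.54, permutation p = 0.00345 and 0.0507, adjusted p = 0.0102 and 0.103, r 0.39 without the 2 farthest libraries and 0.78 with arm means removed), so its relation rests on those libraries. LAMA3, the alpha chain of the same laminin as LAMB3, had r = -0.42 (rho = -0.20, permutation p = 0.131 and 0.494, adjusted p = 0.182 and 0.606, r -0.26 without the 2 farthest libraries and -0.47 with arm means removed). With smooth muscle LAMA3 had r = 0.68 (rho = 0.58, permutation p = 0.0095 and 0.0332, adjusted p = 0.0228 and 0.078, r 0.73 without the 2 farthest libraries and 0.79 with arm means removed), and LAMA5 had r = 0.75 (rho = 0.71, permutation p = 0.00259 and 0.00618, adjusted p = 0.00799 and 0.018, r 0.78 without the 2 farthest libraries and 0.75 with arm means removed).

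LYZ made up 44.3 to 93.6% of the sum over the 9 leukocyte markers in these bladders, so the leukocyte class was also set beside the sum of the other 8, a choice made after the data were seen, with p-values adjusted over the same number of relations. Without LYZ the sum was highest in Entero native bladder 2 and PRS native bladder 4 (896 and 888 CPM), the 2 farthest libraries, where the other 12 had 33.6 to 246 CPM. Of the 8 leukocyte members 5 had a positive relation at an adjusted p under 0.05, and r was over 0.8 for 4, beside 5.64% of all genes, and for none of the other classes. ITGA4 had r = 0.99 (rho = 0.87, permutation p = 1e-05 and 8e-05, adjusted p = 0.000216 and 0.00108, r 0.96 without the 2 farthest libraries and 0.98 with arm means removed). ITGAL had r = 0.95 (rho = 0.83, permutation p = 1e-05 and 0.00039, adjusted p = 0.000216 and 0.00263, r 0.92 without the 2 farthest libraries and 0.92 with arm means removed), and ITGB7 had r = 0.88 (rho = 0.81, permutation p = 5e-05 and 0.00089, adjusted p = 0.00045 and 0.00437, r 0.82 without the 2 farthest libraries and 0.84 with arm means removed). ITGB2 had r = 0.56 (rho = 0.26, permutation p = 0.0347 and 0.375, adjusted p = 0.0669 and 0.478, r -0.11 without the 2 farthest libraries and 0.48 with arm means removed). With LYZ in the sum r was 0.68 for ITGA4, 0.82 for ITGAL, 0.91 for ITGB7 and -0.08 for ITGB2, and 4 members, ITGB7, ITGAL, ITGB6 and LAMB3, had r over 0.8, beside 4.93% of all genes. Without LYZ the epithelial ITGB6 was at r = 0.57 and LAMB3 at r = 0.43, and neither passed.

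**Figure D5:**
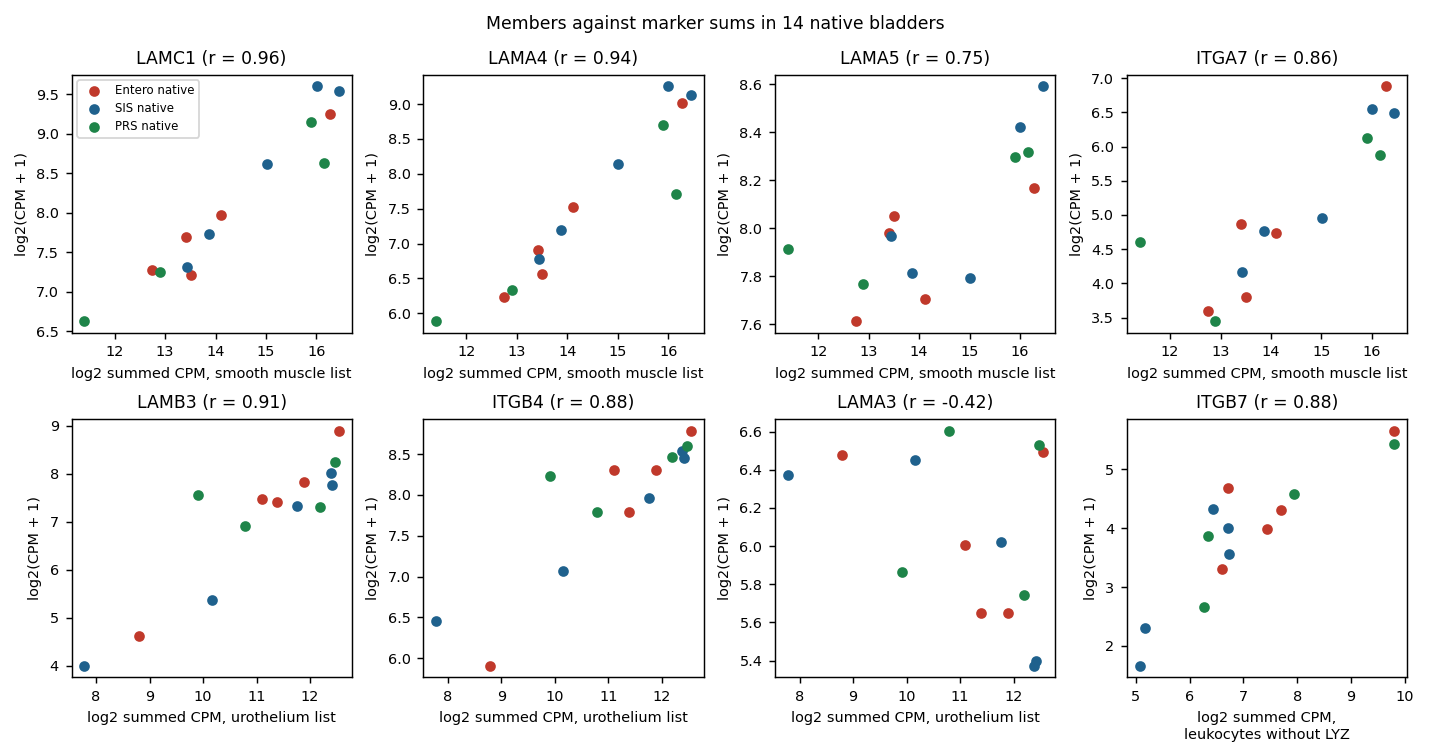
Log2(CPM + 1) of members against the log2 summed CPM of a marker list in 14 native bladders, 1 point per animal, colored by arm. LAMC1 climbs with the smooth muscle list (r = 0.96) and LAMB3 with the urothelial list (r = 0.91), while LAMA3 does not climb with the urothelial list (r = -0.42).

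Genes that work beside laminins and integrins were read from 4 lists. In ileum grafts against native bladder 5 of 16 basement membrane partners were lower and 0 higher, beside the 15.0% of all genes. COL4A5, a type IV collagen chain, was at 6.91 ± 3.19 CPM in ileum grafts and 60.2 ± 23.6 CPM in native bladders (SD, n = 5 each; log2 fold change -3.12, adjusted p = 3.78e-05 in edgeR). Its partner chain COL4A6 was at 6.21 ± 4.05 CPM in ileum grafts and 81.02 ± 37.4 CPM in native bladders (-3.70, adjusted p = 0.0011). SMOC1, a calcium-binding protein of basement membranes (-4.47, adjusted p = 0.00632), and DAG1, the dystroglycan receptor for laminin (-1.11, adjusted p = 0.0121 in edgeR), followed, and the fifth, named after its value was seen, was NTN4 (-1.28), whose call was lost without ileum graft 2 or 5 or Entero native bladder 2. COL4A1 and COL4A2, the main type IV chains, did not pass. Of 5 hemidesmosome genes 0 passed, and COL17A1 was at 117 ± 92.1 CPM in ileum grafts and 21.3 ± 17.4 CPM in native bladders (2.45, adjusted p = 0.112). Of 18 adhesion complex genes 1 was lower, TLN2, a talin that links integrins to actin (-1.32, adjusted p = 0.0348 in edgeR, lost without ileum graft 2, 4 or 5 or Entero native bladder 3 or 5).

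Of 17 integrin ligands 2 were higher in the ileum grafts. TNC, tenascin C, was at 510.0 ± 359.9 CPM in ileum grafts and 48.9 ± 35.8 CPM in native bladders (3.38, SE 0.77, adjusted p = 0.00332 in edgeR). EDIL3, a ligand of ITGAV integrins, had 27.8, 5.31, 5.74, 5.75 and 13.8 CPM in ileum grafts, against 0.145, 0.0581, 0.0793, 0 and 0 CPM in native bladders (7.57, SE 1.29, adjusted p = 0.000247). In the scaffold arms no partner gene passed against native bladder. TNC had 2.73 (1.19 to 4.27, adjusted p = 0.505 in edgeR) in the SIS arm, a value carried by SIS regenerated tissue 2, with 1543 CPM where the other 4 had 39.7 to 143 CPM and SIS native bladders 28.3 to 81.9 CPM. Without it the value was 0.58. ICAM1, a ligand of ITGB2 integrins, was at 307 CPM in the same library and 10.4 to 44.5 CPM in the other 4, against 8.596 to 14.8 CPM in SIS native bladder (2.68, 1.10 to 4.27, and 0.85 without that library). In the PRS arm EDIL3 was at 0.227 to 0.879 CPM in PRS regenerated tissue, against 0 CPM in all 4 PRS native bladders. The change of COL4A5 differed from the Entero change by 2.70 for SIS (adjusted p = 0.00688) and 2.99 for PRS (adjusted p = 0.00872 in edgeR), comparisons that share the Entero libraries.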

How the data were processed

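The authors deposited a table of raw read counts per gene, with a gene length (in bases) in a further column. The submitters' processing notes name featureCounts 1.5.0-p3, StringTie 1.3.3b and HISAT2 2.0.5. Genome build, annotation and strand setting of the counting were not given in the sources used here. Reads of a gene and its antisense or overlapping partner therefore cannot be told apart, and no coordinates are printed. Per the labels' protocols the libraries were poly-A selected, directional and paired-end. Of the table's genes 6280 had no symbol.

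Genes passed filterByExpr at a minimum count of 10, leaving 17177. After TMM scaling 1 quasi-likelihood model was fitted to all 28 libraries, by group (edgeR 4.0.16, limma 3.58.1, R 4.3.3). Benjamini-Hochberg adjustment ran over every gene tested, with a threshold of 0.05. Each SE is the size of the log2 fold change divided by the root of its F value. CPM per kilobase uses the deposited gene length. Alternatives were DESeq2 1.42.0, RLE scaling, no filter, only the groups compared, the animal as a block and leaving out each library. Shares called by DESeq2 are over genes with an adjusted p. The test was tested on simulated data with known changes.

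Graft and native bladder of 1 animal were paired by the animal codes in the labels. The correlation of their deviations from the group means lay between -0.167 and 0.578 over 14 pairs, with 7 over 0.1. The members, classes, marker and partner lists were chosen with earlier results of these data known. Of the 36 members 35 are named; 1 is counted among the members but not reported here by itself. Members that passed in a comparison of graft with native bladder or between arms are given in each library of that comparison. Of each partner list the counts and up to 4 genes with the smallest p are given.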

Additional observations from a re-analysis of the deposited data

Results flagged for a closer look

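Each member reported by name was looked at in each of the 6 groups for a highest or lowest library far from the rest. Dixon's test at the 95% level was used, which chance meets in about 1 of 20 groups if values are normally distributed. It was met in 38 of 210 combinations, or 18.1%. The test was run on CPM and not on its log, and CPM need not be normally distributed. The share therefore does not measure an excess over chance.

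Entero native bladder 4 stood above the rest of its group in ITGA1 (197 CPM, others 36 to 50.7), ITGA11 (117 CPM, others 23.5 to 37.6), ITGA5 (691 CPM, others 133 to 213), ITGA7 (117 CPM, others 11.2 to 28.3), ITGA9 (54.1 CPM, others 5.83 to 13.1), LAMA4 (517 CPM, others 74.6 to 184), LAMC1 (606 CPM, others 147 to 250.2), ITGAE (140.1 CPM, others 26.4 to 43.2) and ITGB1 (1015 CPM, others 397 to 528), and below it in ITGA6 (11.4 CPM, others 48.5 to 62.7). Its smooth muscle marker sum was 79187 CPM where the rest of the group had 6868 to 17662 CPM, and its fibroblast sum 18815 CPM where they had 3315 to 7696 CPM. Its urothelial sum was 445 CPM where they had 2195 to 5962 CPM. The part of tissue content in these values was not tested.

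PRS regenerated tissue 2 stood above the rest of its group in ITGA1 (375 CPM, others 9.03 to 43.97), ITGA5 (1543 CPM, others 78.5 to 329), ITGA7 (80.99 CPM, others 24.8 to 30.9), ITGB5 (193 CPM, others 114 to 122), LAMA2 (82.1 CPM, others 4.34 to 15.1), LAMA4 (694 CPM, others 102 to 173), LAMB1 (350.2 CPM, others 124 to 140.4), LAMB2 (726 CPM, others 367 to 384) and LAMC1 (969.5 CPM, others 148 to 278), and below it in ITGB7 (3.19 CPM, others 21.7 to 23.3). Its smooth muscle marker sum was 84646 CPM where the rest of the group had 3589 to 22421 CPM, and its fibroblast sum 18913 CPM where they had 3808 to 6406 CPM. Its urothelial sum was 371 CPM where they had 1413 to 2755 CPM. The part of tissue content in these values was not tested.

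SIS regenerated tissue 2 stood above the rest of its group in ITGA5 (1147 CPM, others 103 to 284), ITGA9 (54.2 CPM, others 8.02 to 18.0), LAMC3 (45.7 CPM, others 5.56 to 16.7), ITGAX (18.7 CPM, others 3.72 to 5.77) and ITGB1 (1496 CPM, others 430.4 to 652). Its smooth muscle marker sum was 46724 CPM where the rest of the group had 8035 to 29271 CPM, and its fibroblast sum 32907 CPM where they had 6009.7 to 13309 CPM. Its urothelial sum was 337 CPM where they had 2532 to 6014 CPM. The part of tissue content in these values was not tested.

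Ileum graft 3 stood above the rest of its group in LAMA5 (305 CPM, others 84.2 to 110.0), ITGA5 (691 CPM, others 81.6 to 145), ITGA7 (209 CPM, others 7.12 to 54.5) and LAMB2 (649.8 CPM, others 109 to 180.3). Its smooth muscle marker sum was 90959 CPM where the rest of the group had 4160.0 to 36530.3 CPM, and its fibroblast sum 2134 CPM where they had 1081 to 6549 CPM. The part of tissue content in these values was not tested.

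In the other cases a single library stood above its group. ITGA2 was at 24.3 CPM in ileum graft 1, with 0.730 to 4.76 CPM in the others. ITGA10 was at 27.7 CPM in Entero native bladder 1, with 17.8 to 18.8 CPM in the others. ITGA11 was at 58.4 CPM in PRS native bladder 2, with 19.1 to 24.01 CPM in the others. ITGA8 was at 15.7 CPM in PRS regenerated tissue 1, with 4.91 to 5.60 CPM in the others. ITGA8 was at 16.4 CPM in PRS native bladder 4, with 4.604 to 5.69 CPM in the others. ITGA4 was at 59.1 CPM in Entero native bladder 2, with 3.34 to 12.03 CPM in the others. ITGAM was at 6.99 CPM in ileum graft 4, with 2.94 to 3.76 CPM in the others. ITGAX was at 16.5 CPM in PRS regenerated tissue 4, with 6.43 to 6.69 CPM in the others. LAMB4 was at 0.162 CPM in PRS regenerated tissue 3 and at 0 in the others.

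The change of ITGA2 against native bladder differed between the SIS and Entero arms by 3.13 on the log2 scale in the test of the difference itself (adjusted p = 0.0358 in edgeR), and the limits of that call are given above.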

How the results depend on the processing

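Counts of members called moved by over 1.5 times in 4 comparisons, and the cause was not tested. For ileum graft against native bladder, where 5 passed, RLE size factors gave 3, the replicate block by animal 3 and a fit of only the 2 groups 2, and leaving out single libraries gave 1 to 5. For the SIS minus Entero difference, where 1 passed, RLE gave 2, DESeq2 6 and the block 0, and single libraries left out gave 0 to 2. For the PRS minus Entero difference, where 0 passed, DESeq2 gave 2 and single libraries left out gave 0 to 1. For PRS regenerated tissue against ileum graft, where 5 passed, DESeq2 gave 8 and only the 2 groups 2, and single libraries left out gave 3 to 6. For SIS regenerated tissue against ileum graft, where 7 passed, single libraries left out gave 5 to 7. In the other 8 comparisons the count was 0 and stayed 0 (0 to 0) with each library left out. Of 18 calls of single members 7 held in every alternative run, 11 were lost in at least 1 and 0 reversed. Without LYZ in the leukocyte list, a choice made after the data were seen, r of ITGB2 with that sum over native bladders turned to 0.56, where it was -0.08 with it, and neither passed. The block changed no other call than those given with it above. With 4 or 5 animals a group, the interval against native bladder stayed within 4-fold either way for 18 of 36 members in the SIS arm, which limits what a missing call can show.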
